A study of Mus musculus with 4 samples.

Results

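Serine synthesis and one-carbon metabolism are described here through the genes of 8 enzymes, Phgdh, Psat1, Psph, Shmt1, Shmt2, Mthfd1, Mthfd2 and Gldc, taken by symbol from the 32285 genes in the count matrices. They were followed in radial glia, dividing progenitors and neurons of the medial ganglionic eminence (MGE), a germinal zone of the ventral embryonic forebrain. The members were chosen by their measured levels in these 3 classes, so their differences between classes are given as description and were not tested. The comparison of genotypes was tested across all genes.

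Cells make serine from the glycolytic intermediate 3-phosphoglycerate by the successive action of Phgdh (a dehydrogenase), Psat1 (an aminotransferase) and Psph (a phosphatase). Serine hydroxymethyltransferases, Shmt1 in the cytosol and Shmt2 in mitochondria, then convert serine to glycine and pass a carbon unit to folate, which Mthfd1 in the cytosol and Mthfd2 in mitochondria interconvert between oxidation states for the synthesis of purines and thymidylate. Gldc is the glycine decarboxylase of the glycine cleavage system, a second mitochondrial source of carbon units. In the developing brain, radial glia are the neural stem cells, and the first enzyme of serine synthesis is known as a radial glia and astrocyte gene.

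The study sequenced RNA of single MGE cells in droplets (10x Genomics) from mouse embryos at e14.5, whose parents were St18(+/−) in a C57/BL6 and ICR mix. MGE was pooled by genotype, and 2 libraries carry the label St18(−/−), here null, and 2 the label wildtype, here WT. In the null, exons 9 and 10 of St18, a zinc finger transcription factor gene, were removed in the whole animal with a germline E2a-Cre, and the deleted allele can still be transcribed. The paper calls the libraries 2 biological replicates per genotype and the WT embryos littermates of the null. How many embryos a pool held, and of which sex, was not stated. Nothing says which null and WT libraries shared litters, or that the 2 libraries of a genotype came from separate litters. The p-values thus measure only the spread between these libraries.

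The libraries held 70991150 to 92984713 unique molecular identifiers (UMIs). After a floor of 3000 UMIs, a limit of 10% mitochondrial UMIs and the removal of likely doublets, 18267 cells remained. Of these, 1825 were radial glia, 3189 dividing progenitors and 9630 neurons by cluster, with a median of 9271 to 14455 UMIs per radial glial cell, 8953 to 14505 per dividing progenitor and 5478 to 8109 per neuron across libraries. Another 3294 cells fell in 7 clusters with too few raised class markers or too small a lead of 1 class, and stayed unnamed. A further 329 were erythroid, microglia or pallial cells. By phase score, 43.5% to 46.0% of radial glia and 24.7% to 32.4% of dividing progenitors were in S phase across libraries. The shares in G2M phase were 37.1% to 41.4% and 67.6% to 75.3%. Both progenitor classes thus held cycling cells, and the part of phase in their differences was not tested. Of the markers that had named the clusters, 10 of 11 for radial glia, 12 of 12 for dividing progenitors and 8 of 8 for neurons were highest in their own class in every library. Nkx2-1, which marks the MGE, was between 187 and 585 CPM (counts per 1000000 UMIs) in every class and library. The 6 pallial markers summed to at most 3.27 CPM. These are sums over a class, and the lineage of single neuron clusters was not tested. Among them, cluster 12 (687 cells) was led by Ebf1, Nefl and Isl1, and cluster 15 (454 cells) had Six3 and Foxp2 among its leading genes. The 5 markers of oligodendrocyte precursors summed to 168 to 263 CPM in radial glia, 15.9 to 19.6 in dividing progenitors and 34.8 to 42.04 in neurons, and 4 of them were highest in radial glia without overlap. The 4 choroid plexus markers summed to 44.6 to 61.4, 6.01 to 14.1 and 1.78 to 2.18 CPM, and 2 of them were highest in radial glia without overlap. The part of such cells in the class levels was not tested.

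The targeted gene was not lower in both null libraries in any class. Neurons of the null libraries held St18 at 25.04 and 78.8 CPM (replicates 1 and 2), and those of the WT libraries at 44.8 and 59.6 CPM. The library labelled null replicate 2 was thus above both WT libraries, as it was in dividing progenitors (60.2 against 37.6 and 45.8 CPM, with null replicate 1 at 16.9). In radial glia, where St18 had 5 to 24 UMIs a library, both null libraries (2.29 and 4.21 CPM) were above both WT libraries (1.502 and 1.585 CPM). Xist, which is transcribed from the inactive X chromosome, was at 587 and 1466 CPM in neurons of the null libraries and at most 0.222 CPM in those of WT, so the null pools held cells of both sexes and the WT pools male cells. Genotype and sex composition cannot be told apart in these libraries other than by taking male cells alone.

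All 8 genes are protein-coding, and each had 1 row in the matrices. In the GENCODE M21 annotation of GRCm38, the build named in the submitters' processing notes, Phgdh lies on chromosome 3 from 98313170 to 98339990, Psat1 on chromosome 19 from 15904678 to 15947337 and Psph on chromosome 5 from 129765558 to 129787449. Shmt1 lies on chromosome 11 from 60788104 to 60811718, Shmt2 on chromosome 10 from 127517123 to 127522444, Mthfd1 on chromosome 12 from 76255298 to 76319803, Mthfd2 on chromosome 6 from 83305691 to 83325908 and Gldc on chromosome 19 from 30098447 to 30175429. Mthfd1 is on the plus strand and the others on the minus strand. Genes on the opposite strand with rows of their own overlap Psph (Cct6a), Shmt1 (Smcr8), Shmt2 (Ndufa4l2) and Mthfd1 (Gm47525 and Gm34868).

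Because all 8 genes were lowest in neurons, the 250 bases upstream of the RefSeq start site were searched on both strands (GRCm38.p6, 1 window per gene). The 5 letters CCAAT, the CCAAT box, were present in 7 of the 8 windows and in 33.8% of all 32851 RefSeq windows of that length. The GC box GGGCGG was present in 4 of the 8 and in 32.7% of all windows. Neither TGATGNAA, the core of the amino acid response element bound by Atf4, nor the E-box CACGTG was found in the 8 windows, against 3.45% and 6.02% of all windows. CCAAT was singled out after the matches had been counted, so its share is a description without a test. The windows of all genes cover 27025 symbols, some with more than 1 window, and were not limited to genes expressed here. GENCODE exons covered 196 of the 250 bases for Psph, 49 for Shmt1, 21 for Phgdh and 2 for Mthfd2. A match is a run of letters and not a measured binding site.

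The windows given here are those of the pair of genes with the largest difference between radial glia and neurons, Psat1 and Phgdh, of Mthfd2, which had the most CCAAT matches and a class order of its own, and of Shmt2, which had none. They read 5′ to 3′ on the strand of the gene, the minus strand in each case, with CCAAT or its reverse complement ATTGG in capitals. The positions are chr3:98339970-98340219 for Phgdh, chr19:15925060-15925309 for Psat1, chr6:83317605-83317854 for Mthfd2 and chr10:127522445-127522694 for Shmt2. For Psat1 and Mthfd2 the window lies within the longer GENCODE gene, whose first start site is 22278 and 8304 bases away.
Phgdh: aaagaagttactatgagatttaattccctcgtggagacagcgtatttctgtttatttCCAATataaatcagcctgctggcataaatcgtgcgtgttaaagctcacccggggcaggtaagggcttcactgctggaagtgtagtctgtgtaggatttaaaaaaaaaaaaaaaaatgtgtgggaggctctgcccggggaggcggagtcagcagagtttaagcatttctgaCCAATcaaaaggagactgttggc
Psat1: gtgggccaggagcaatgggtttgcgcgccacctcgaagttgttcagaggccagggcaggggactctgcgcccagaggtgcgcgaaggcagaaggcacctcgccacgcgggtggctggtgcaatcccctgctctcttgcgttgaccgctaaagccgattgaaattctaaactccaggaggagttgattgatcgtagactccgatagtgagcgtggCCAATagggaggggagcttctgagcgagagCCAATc
Mthfd2: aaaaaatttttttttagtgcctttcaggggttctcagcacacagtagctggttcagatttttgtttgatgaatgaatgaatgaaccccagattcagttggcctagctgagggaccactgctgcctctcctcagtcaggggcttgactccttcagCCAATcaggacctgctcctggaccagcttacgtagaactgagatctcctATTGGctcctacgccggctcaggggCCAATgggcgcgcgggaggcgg
Shmt2: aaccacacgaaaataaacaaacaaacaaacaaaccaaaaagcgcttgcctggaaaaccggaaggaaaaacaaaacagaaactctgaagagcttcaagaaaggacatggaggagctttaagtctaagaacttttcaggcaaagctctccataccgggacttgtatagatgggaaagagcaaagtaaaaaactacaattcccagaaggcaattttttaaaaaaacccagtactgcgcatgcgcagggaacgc

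The 3 enzymes of serine synthesis had their highest levels in radial glia. Levels are UMIs of the gene divided by all UMIs of the class in a library, scaled to 1000000. They are compared between classes for one gene and not between genes, because counts from one end of a transcript also depend on the gene. Values are given for null replicates 1 and 2 and then WT replicates 1 and 2.

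In radial glia, Phgdh was at 462, 329, 409 and 460 CPM. In dividing progenitors it was at 161, 106, 152 and 153 CPM, and in neurons at 24.6, 16.8, 18.5 and 22.0 CPM. The 3 classes did not overlap in any pair of libraries, and null replicate 2 was the lowest library in each class. The mean was 415 ± 62.3 CPM in radial glia, 143 ± 24.9 in dividing progenitors and 20.5 ± 3.49 in neurons (SD, n = 4 libraries). The ratio of radial glia to neurons within a library was 18.8 to 22.2, and that of radial glia to dividing progenitors 2.70 to 3.10.

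Psat1 was more closely limited to radial glia. Its level was 305, 340, 277 and 281 CPM in radial glia, 31.1, 36.05, 29.0 and 29.4 CPM in dividing progenitors and 13.1, 13.5, 11.1 and 11.7 CPM in neurons. The step from radial glia to dividing progenitors was 9.44-fold to 9.83-fold in the 4 libraries, against 2.38-fold to 2.68-fold from dividing progenitors to neurons. The log2 ratio of radial glia to dividing progenitors was 3.26 ± 0.024 (SD, n = 4 libraries), but it depended on how cells were classed. It was 2.34 with the unnamed clusters put back and 1.97 with cells classed by their own markers. Psph, the last enzyme of the path, had the same shape at smaller differences. It was at 105, 98.9, 113 and 108 CPM in radial glia, 23.7, 19.7, 25.3 and 25.5 in dividing progenitors and 18.1, 14.9, 17.2 and 18.1 in neurons. Its mean ratio of dividing progenitors to neurons, 1.37, was the smallest of the 8 genes. Its log2 ratio of radial glia to dividing progenitors, 2.18, was 1.46 and 1.39 under those classings.

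**Figure D1:**
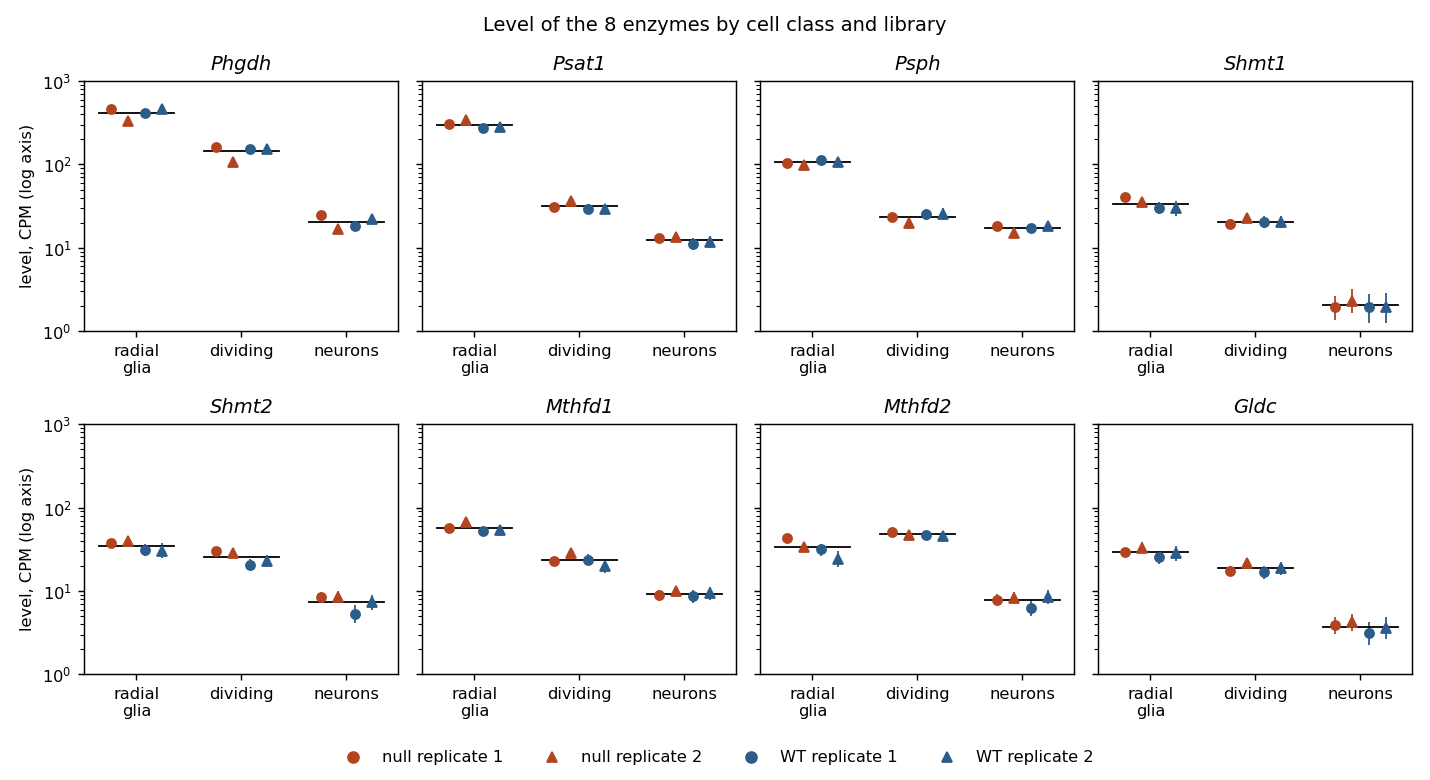
Level of each enzyme gene in CPM on a log axis, in radial glia, dividing progenitors and neurons of the 4 libraries (bars, 95% exact Poisson intervals, which cover counting error only; lines, means of 4 libraries). All 8 genes are lowest in neurons, and Mthfd2 alone is higher in dividing progenitors than in radial glia.

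The cytosolic folate enzymes followed. Shmt1 was at 40.7, 35.1, 30.04 and 29.8 CPM in radial glia, 19.2, 22.6, 20.3 and 20.5 in dividing progenitors and 1.94, 2.33, 1.93 and 1.94 in neurons. Its fall from dividing progenitors to neurons, 10.2-fold by the mean of log2 ratios, was the steepest of the 8 genes, whereas radial glia exceeded dividing progenitors by 1.63-fold. Mthfd1, the trifunctional cytosolic enzyme, was at 56.8, 67.0, 52.4 and 53.9 CPM in radial glia, 22.8, 28.4, 23.6 and 19.8 in dividing progenitors and 8.89, 9.91, 8.60 and 9.38 in neurons. The ratios of its class means in log2 were 2.44-fold from radial glia to dividing progenitors and 2.55-fold from there to neurons.

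Of the mitochondrial enzymes, Shmt2 differed least among progenitors and Mthfd2 was reversed. Shmt2 was at 37.3, 40.0, 31.1 and 30.4 CPM in radial glia, 30.2, 28.4, 20.5 and 23.0 in dividing progenitors and 8.40, 8.51, 5.34 and 7.36 in neurons. The nearest libraries of the progenitor classes were WT replicate 2 in radial glia (30.4 CPM) and null replicate 1 in dividing progenitors (30.2 CPM), so the classes of Shmt2 were barely apart over libraries. Mthfd2 was at 43.6, 33.7, 31.5 and 24.4 CPM in radial glia, 51.1, 47.3, 46.8 and 46.2 in dividing progenitors and 7.90, 8.27, 6.30 and 8.49 in neurons. Dividing progenitors were above radial glia in 4 of 4 libraries, and the log2 ratio of radial glia to dividing progenitors was −0.55 ± 0.28 (SD, n = 4). It is the only member of the 8 with that order. The order held for the classes as a whole and not for every cluster in them.

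Gldc, which releases a carbon unit from glycine, was at 29.3, 33.1, 25.5 and 28.2 CPM in radial glia, 17.5, 21.8, 16.9 and 18.7 in dividing progenitors and 3.88, 4.20, 3.11 and 3.64 in neurons. Radial glia exceeded neurons by 7.85-fold and dividing progenitors by 1.55-fold. No pair of classes overlapped.

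The genes were ordered by the mean ratio of radial glia to neurons. They were Psat1 (24.4-fold), Phgdh (20.3), Shmt1 (16.6), Gldc (7.85), Psph (6.24), Mthfd1 (6.23), Shmt2 (4.74) and Mthfd2 (4.24). Over the alternative settings, the log2 ratio was 3.89 to 4.63 for Psat1, 3.88 to 4.44 for Phgdh and 3.72 to 4.26 for Shmt1. These ranges overlap, so the order of these genes is that of the main classing. Psph and Mthfd1 did not differ beyond the spread over libraries, with log2 ratios of 2.64 ± 0.098 and 2.64 ± 0.10, and neither did Shmt2 and Mthfd2, with 2.24 ± 0.21 and 2.08 ± 0.42. All 8 genes were higher in radial glia than in neurons with no overlap of libraries, against 33.8% of the 9471 genes that reached 10 CPM on average in 1 of the classes (28.9% were lower), and all 8 differed by at least 2-fold, against 17.2%. From dividing progenitors to neurons, 8 of 8 were higher without overlap, against 23.9% of 8989 genes (30.1% were lower), and 7 of 8 by at least 2-fold, against 10.3%. From radial glia to dividing progenitors, 7 of 8 were higher (25.8% of 8927 genes), 4 of them by at least 2-fold (8.21%), and 1 was lower (17.2%). These orders chose the genes, and nothing is read from the counts.

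**Figure D2:**
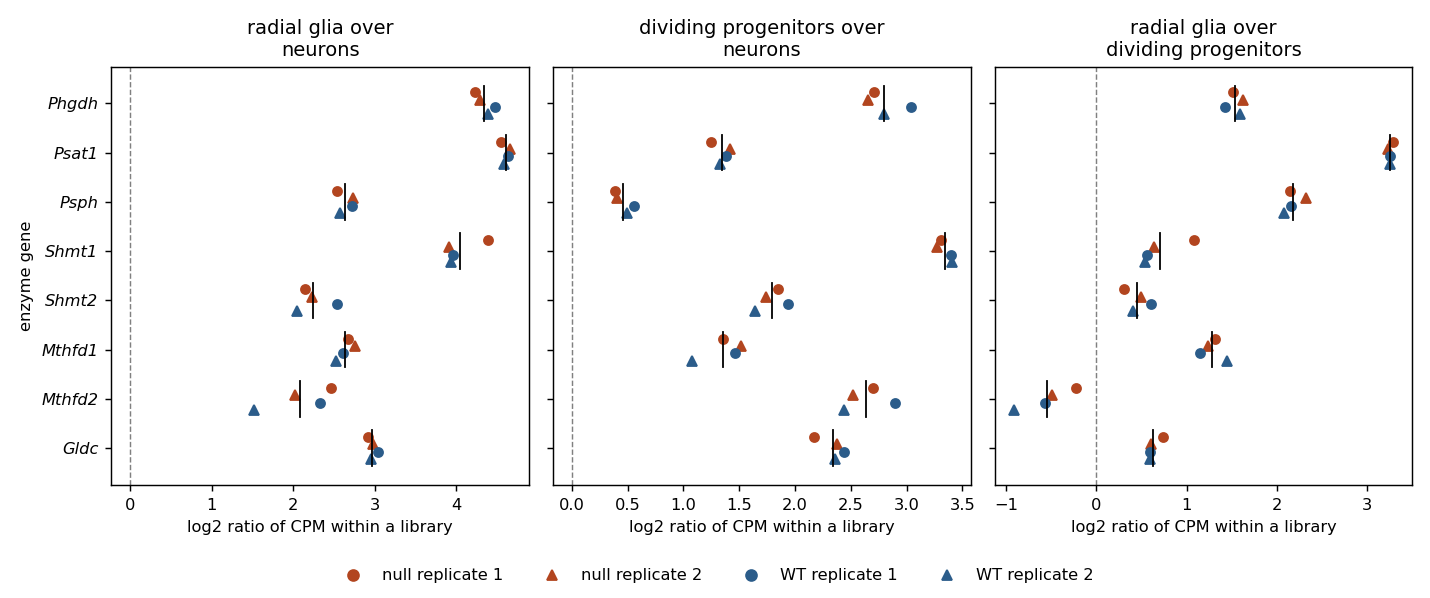
Log2 ratio of CPM between classes within each library for the 8 enzyme genes (points, libraries; lines, means of 4 libraries; dashed line, no difference). Psat1 and Phgdh have the largest ratios of radial glia to neurons, 4.61 and 4.34 on the log2 scale, and Mthfd2 is below 0 in radial glia over dividing progenitors in all 4 libraries.

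Cells were also thinned to 3000 UMIs, since the classes differed in depth. A UMI of Phgdh was then found in 56.5% to 68.3% of radial glia, 25.4% to 34.5% of dividing progenitors and 4.65% to 7.61% of neurons in the 4 libraries. Before thinning the shares were 88.4% to 91.1%, 65.5% to 67.5% and 9.94% to 13.9%. For Psat1 the thinned shares were 43.1% to 51.5%, 7.69% to 9.70% and 2.94% to 3.96%. The order of the classes was thus that of the levels for both genes. For Shmt1 the thinned shares of radial glia (5.56% to 10.6%) and dividing progenitors (5.56% to 7.31%) overlapped. In WT replicate 1 dividing progenitors were the higher, at 5.67% against 5.56%. The shares of Shmt2 overlapped too, with 7.87% to 11.5% against 4.18% to 8.90%.

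Low shares were set against erythroid cells, which make hemoglobin. The 152 erythroid cells had a median of 11430 UMIs, and after thinning 2.63% of them held a UMI of Phgdh (95% Clopper-Pearson interval 0.722% to 6.60%) and none held a UMI of Psat1 (upper bound 2.40%). For Mthfd2 the thinned share was 2.63% in erythroid cells and 1.84% to 2.74% in neurons, and its level in erythroid cells was 6.22 CPM. The neuron range lay within the interval of the erythroid share (0.722% to 6.60%), so the Mthfd2 share in neurons was not above that of erythroid cells. Erythroid cells had less Phgdh (3.96 CPM) than Mthfd2, whereas droplets with under 100 UMIs held more Phgdh. Those droplets had Mthfd2 at 14.2 to 19.4 CPM. Whether erythroid cells express Mthfd2 themselves was not tested, so their share is not taken as its background. For Phgdh the neuron range overlapped the interval of erythroid cells, and for Psat1 and Psph (4.803% to 5.47% of neurons) it lay above the erythroid upper bound. The neuron range of Mthfd1 (2.48% to 3.19%) lay above the upper bound of 2.40% too, and that of Shmt2 (1.45% to 2.92%) lay on both sides of it. The thinned shares of Shmt1 (0.427% to 0.788%) and Gldc (0.982% to 1.42%) in neurons lie within the intervals of erythroid cells. Droplets with under 100 UMIs, which hold free RNA, had Phgdh at 168 to 217 CPM and Psat1 at 54.7 to 77.1 CPM, both above the level of neurons and of dividing progenitors in 4 of 4 libraries. Psph was higher in these droplets than in both classes too, and the other 5 members were higher in them than in neurons. All 8 were lower in them than in radial glia in 4 of 4 libraries. The part of free RNA in the levels of dividing progenitors and neurons was not tested. The 110 microglia had Phgdh at 94.5 CPM, Psat1 at 67.8 CPM and no UMI of Gldc.

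Within the progenitor classes, the members did not all follow the same order of clusters. Clusters are compared without a test, since the same cells defined them, and the pairs below were chosen after their values had been seen. Members were not among the genes used for clustering. Of the 2 radial glia clusters, cluster 2 (1485 cells) was in cycle by phase score, with 51.2% of cells in S and 43.7% in G2M phase. Cluster 18 (340 cells), led by Fabp7, Olig1, Bcan and Slc1a3, had 59.1% of cells in G1. Summed markers of oligodendrocyte precursors, mural cells, choroid plexus and neurons were higher in cluster 18 without overlap. Sums of erythroid, endothelial, microglia, fibroblast and pallial markers overlapped. Those of dividing progenitors were lower (2043 to 3900 against 4475 to 5580 CPM). The 5 oligodendrocyte precursor markers summed to 534 to 901 CPM in cluster 18 and 98.9 to 116 CPM in cluster 2 across libraries. Olig1 was at 144 to 290 against 2.40 to 9.50 CPM and Pdgfra at 51.2 to 256 against 0.719 to 4.97 CPM. Matn4, at 0 to 10.3 against 0 to 0.479 CPM, overlapped. The 11 radial glia markers summed to 13191 to 16349 CPM in cluster 18 and 5656 to 6224 CPM in cluster 2. Mural markers summed to 30.3 to 63.9 against 5.49 to 7.56 CPM, choroid plexus markers to 76.7 to 114 against 40.002 to 51.4 CPM, and neuron markers to 542 to 686 against 366 to 506 CPM. The part of such cells in the differences between these clusters was not tested.

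Of the serine synthesis genes, Phgdh and Psph were higher in cluster 18 in 4 of 4 libraries and Psat1 was lower in 3 of 4. Phgdh was at 377 to 590 CPM in cluster 18 and 318 to 444 CPM in cluster 2 across the 4 libraries, and Psat1 at 223 to 356 against 283 to 337 CPM. The ranges of both genes overlapped between the clusters. Psph was at 118 to 161 against 94.4 to 111 CPM, above cluster 2 with no overlap (13.3% of 9193 genes).

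Of the folate enzymes, 3 were lower there. Mthfd2 was at 8.25 to 11.4 CPM in cluster 18 and 27.0 to 48.5 CPM in cluster 2, a 4.22-fold difference of the pooled levels. Shmt1 was at 6.18 to 18.7 against 32.8 to 43.8 CPM, 3.46-fold lower. Mthfd1 was at 36.5 to 47.6 against 53.7 to 71.5 CPM, 1.45-fold lower. Mthfd2, Shmt1 and Mthfd1 were the members below cluster 2 without overlap, which 10.5% of all genes were. Of the 8, 2 were at least 2-fold lower (3.84% of all genes) and 0 at least 2-fold higher (6.49%). Shmt2 and Gldc overlapped, with pooled levels of 33.0 and 27.9 CPM in cluster 18 and 36.2 and 29.6 CPM in cluster 2, and were lower in cluster 18 in 3 of 4 and 2 of 4 libraries. Without cluster 18, the Mthfd2 level of radial glia is that of cluster 2, which overlapped the range of dividing progenitors (46.2 to 51.1 CPM) and was below it within each of the 4 libraries. All 14 genes of the S phase list were lower in cluster 18 without overlap, with a median log2 ratio of −1.25. The levels of Shmt1 and Mthfd2 in cluster 18 rest on 36 and 30 UMIs.

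Mthfd2, Shmt1 and Mthfd1 also differed among dividing progenitors. Cluster 4, led by histone genes with 58.9% of cells in S phase, had Mthfd2 at 73.5 to 88.9 CPM, the highest of any named cluster. In cluster 8, with 98.2% of cells in G2M phase and Ube2c and Ccnb1 among its leading genes, Mthfd2 was at 15.4 to 24.6 CPM. That was below radial glia cluster 2 (27.0 to 48.5 CPM) without overlap, so the class order of Mthfd2 did not hold in every cluster. Shmt1 went from 32.4 to 33.9 CPM in cluster 4 to 8.02 to 15.7 in cluster 8, and Mthfd1 from 33.2 to 47.2 to 11.1 to 16.7 CPM. Phgdh differed by 1.78-fold, with 144 to 225 against 77.5 to 122 CPM. These 4 genes did not overlap between the clusters (17.4% of 8542 genes were lower in cluster 8 without overlap), whereas Psat1, Psph, Shmt2 and Gldc did. Within libraries, Psat1 and Shmt2 were also lower in cluster 8 in 4 of 4, Gldc in 3 of 4 and Psph in 2 of 4. Of the 8, 3 were at least 2-fold lower (5.58% of all genes) and 0 at least 2-fold higher (4.35%).

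**Figure D3:**
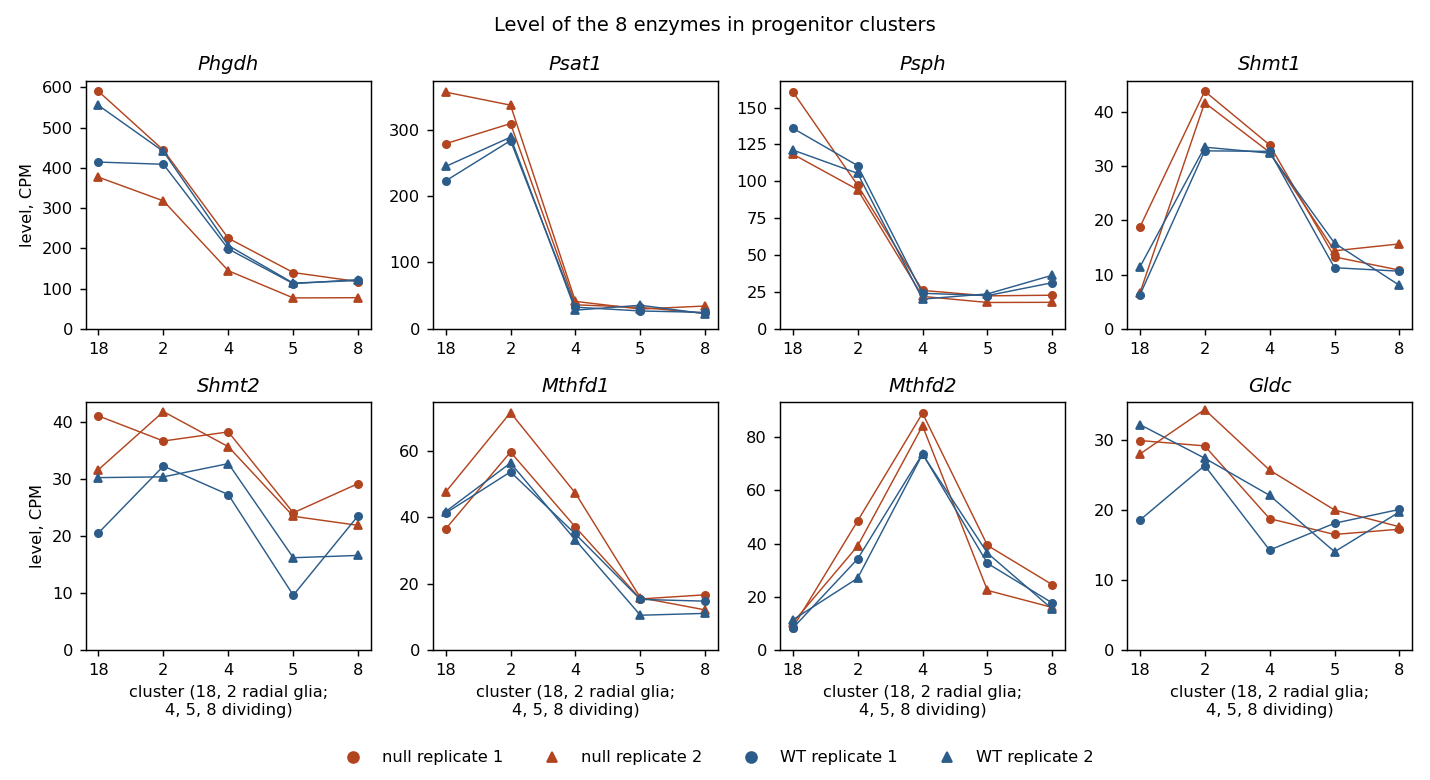
Level in CPM of the 8 enzyme genes in 2 radial glia clusters (18, 2) and 3 dividing progenitor clusters (4, 5, 8), with points for the 4 libraries and lines joining the clusters of one library. Phgdh, Psat1 and Psph are high in both radial glia clusters, whereas Shmt1 and Mthfd2 are low in cluster 18 and Mthfd2 peaks in cluster 4.

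Levels also varied among neuron clusters. Over the 10 neuron clusters, Phgdh was between 15.7 and 31.7 CPM, with its highest level in cluster 1, and Psat1 between 8.38 and 22.3 CPM, with its highest in cluster 15. Mthfd2 was between 4.27 and 16.2 CPM, highest in cluster 12, which was led by Ebf1, Isl1 and Nefl. Among the clusters left unnamed, cluster 16 (410 cells, median 4180 UMIs) had Phgdh at 322 and Psat1 at 190 CPM.

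Over the 15 named clusters, levels of members went together, as log2(CPM + 1). Pearson's r was 0.91 between Phgdh and Psat1, 0.95 between Psat1 and Psph, and 0.96 between Shmt2 and Gldc. Mthfd2 stood furthest from serine synthesis, with r of 0.62 to Phgdh, 0.49 to Psat1 and 0.27 to Psph. Against the summed S phase list, r was highest for Shmt1 (0.96) and lowest for Psph (0.61). The points share 4 libraries and the split of progenitors from neurons, so these values are description.

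Among 8805 genes with at least 20 CPM in a cluster, those with the highest r to Shmt1 were Hells and Etfa (0.98 each). Hells is a chromatin remodeler of dividing cells. For Psph the leading genes were Asrgl1, Ttyh1 and Sparc (0.98 each), of which Ttyh1 is a radial glia marker. For Phgdh they were Gpx8, C430049B03Rik and Iqgap2 (0.987 to 0.995), and for Psat1 Selenof, Cavin3 and Mlec (0.98 each). Myo10 led both for Shmt2 (0.97) and for Gldc (0.99), followed by Tbl1x and Ipo11 for Shmt2 and by Lipg and Pipox for Gldc. Ddx1, Tmem165 and Carnmt1 led for Mthfd1 (0.97 each) and Pitpnb, Pdzd8 and Srsf7 for Mthfd2 (0.93 to 0.95). Most of these names changed with the measure of likeness.

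Other genes of the pathway were set beside the members by list, between radial glia and neurons, and counted where their mean was at least 10 CPM in either class. All genes had a median of 0.039 on the log2(CPM + 1) scale and the 8 members one of 2.62. Of all genes measured, 17.2% were at least 2-fold higher in radial glia and 14.2% at least 2-fold lower. The cytosolic folate list had 7 measured genes, of which 2 are the members Shmt1 and Mthfd1. The other 5 were all at least 2-fold higher in radial glia, with a median of 2.40. Aldh1l1, which oxidizes formyl-folate and is an astrocyte marker, was at 23.2 ± 6.53 CPM in radial glia and 0.389 ± 0.112 in dividing progenitors. Within radial glia its pooled level was 78.6 CPM in cluster 18 and 13.9 CPM in cluster 2, with no overlap of libraries. Tyms, thymidylate synthase, was at 159 ± 13.8 CPM in radial glia, 242 ± 33.4 in dividing progenitors and 29.4 ± 2.85 in neurons, and so had the class order of Mthfd2 (SD, n = 4 libraries each).

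The mitochondrial folate list was mixed. Beside the members Shmt2 and Mthfd2 it had 5 measured genes, of which 1 (Sfxn1) was at least 2-fold higher and 2 were at least 2-fold lower in radial glia. Aldh1l2, the mitochondrial counterpart of Aldh1l1, was at 4.45 ± 1.45 CPM in radial glia, 13.9 ± 3.72 in dividing progenitors and 28.8 ± 6.54 in neurons, an order from lowest in radial glia to highest in neurons that no member had. Mthfd2l, which catalyzes the same step as Mthfd2, was at 93.3 ± 4.14, 75.3 ± 6.53 and 100.1 ± 6.59 CPM. Mthfd1l, which frees formate in mitochondria, was at 8.49 ± 1.54, 4.39 ± 0.973 and 0.772 ± 0.138 CPM. Sfxn1, a mitochondrial serine carrier, was at 133 ± 15.3, 61.5 ± 4.58 and 65.6 ± 7.65 CPM.

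Beyond Gldc in the glycine cleavage system, Gcsh was at 161 ± 15.9 CPM in radial glia, 47.7 ± 3.75 in dividing progenitors and 34.2 ± 3.26 in neurons, and Amt at 9.72 ± 1.21, 4.18 ± 0.345 and 4.07 ± 0.286 CPM. Dld, which also serves pyruvate dehydrogenase, was at 75.1 ± 4.69, 82.7 ± 5.04 and 73.4 ± 5.13 CPM. In the serine list, Phgdh, Psat1 and Psph were at least 2-fold higher in radial glia and none of the other 4 measured genes, which use serine, was. The neutral amino acid carrier Slc1a4 was at 14.4 ± 4.59 CPM in radial glia and 5.43 ± 1.10 in neurons, and the glycine carrier Slc6a9 at 3.94 ± 0.372 and 0.387 ± 0.182 CPM. Slc6a9 had a pooled level of 12.4 CPM in cluster 18 and 2.62 CPM in cluster 2, with no overlap of libraries. In the transport list, 2 of 4 measured genes were at least 2-fold higher.

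In the list of the methionine cycle and transsulfuration, 2 of 6 genes were at least 2-fold higher in radial glia. The methionine cycle enzyme Ahcy was at 10.1 ± 1.46 CPM in radial glia and 2.87 ± 0.314 in neurons, and Mat2a at 271 ± 32.4 and 205 ± 14.9 CPM. All 6 purine synthesis genes and all 14 S phase genes were at least 2-fold higher, with medians of 1.48 and 2.86. Mcm2, a subunit of the replicative helicase, was at 105 ± 18.4 CPM in radial glia, 86.2 ± 8.04 in dividing progenitors and 14.6 ± 3.21 in neurons, and the replication clamp Pcna at 379 ± 39.3, 415 ± 12.2 and 66.4 ± 5.38 CPM. Atf4, a transcription factor known to act on serine synthesis genes, was at 90.1 ± 1.55, 80.5 ± 3.58 and 64.5 ± 1.93 CPM, and its target Asns at 14.6 ± 1.13, 4.38 ± 1.11 and 8.10 ± 1.71 CPM. In the list of Atf4 and its targets, 1 of 6 measured genes was at least 2-fold higher and 1 at least 2-fold lower.

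**Figure D4:**
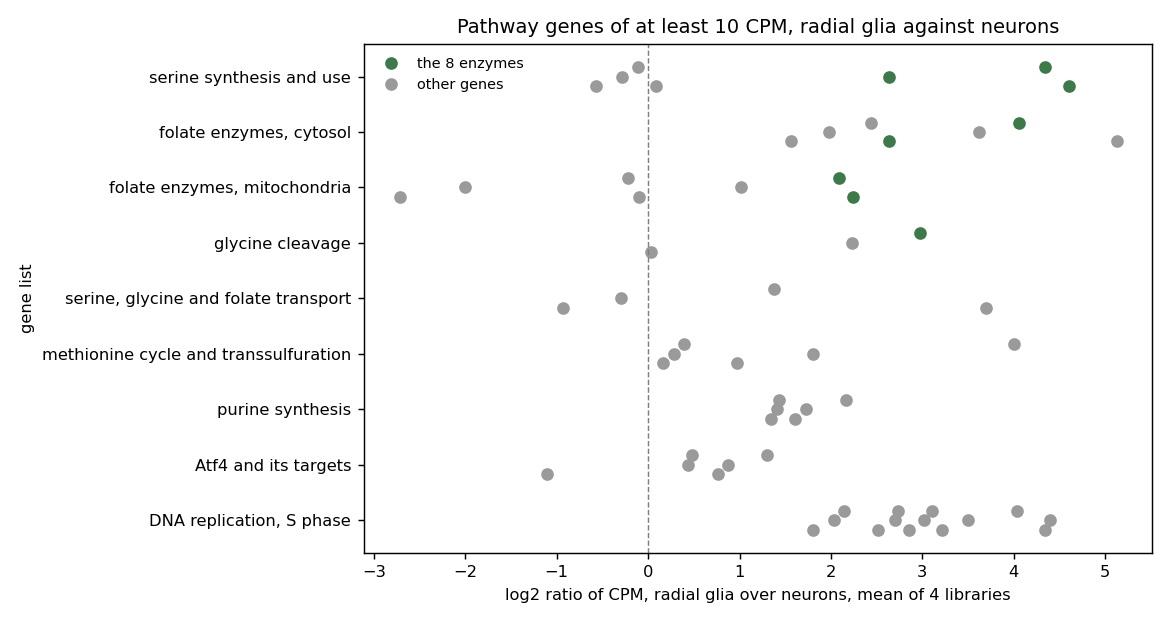
Mean log2 ratio of CPM of radial glia over neurons (4 libraries) for genes of at least 10 CPM in either class, by gene list, with the 8 enzymes in green. The cytosolic folate, purine and S phase lists lie wholly above 0, whereas the mitochondrial folate, serine and transport lists lie on both sides.

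Null was compared with WT in each class to ask whether loss of St18 moved these genes. None of the 8 passed an adjusted p of 0.05 in radial glia, dividing progenitors or neurons (Benjamini-Hochberg over all genes, edgeR quasi-likelihood test), against 2.38% of 11876 genes tested in radial glia, 0.0248% of 12085 in dividing progenitors and 0.65% of 13376 in neurons. DESeq2 also called 0, but its filter on low means gave an adjusted p to only 4 of 8 members in radial glia, 1 of 8 in dividing progenitors and 0 of 8 in neurons. Its unadjusted p was under 0.05 for 0 of 8 in each class. At an unadjusted p under 0.05, 1 of 8 passed in radial glia, where 20.5% of all genes did, and 0 of 8 in dividing progenitors and in neurons, where 13.6% and 17.7% did. All 8 were tested in each class. The median log2 fold change of null over WT over the 8 was 0.0059 in radial glia, −0.045 in dividing progenitors and −0.0081 in neurons, beside 0.013, −0.0034 and −0.0018 over all genes.

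Before the scaling of the edgeR fit, levels in the null libraries were higher for many genes. In radial glia, both null libraries were above both WT libraries for 6 of 8 members, as for 48.1% of all genes, and below them for 1, as for 12.3%. In dividing progenitors 3 were above and 1 below (40.9% and 12.5% of all genes), and in neurons 3 were above and none below (44.2% and 13.7%). With library totals in place of the TMM factors, the median of all genes was 0.22, 0.15 and 0.14 on the log2 scale in the 3 classes. The changes below are relative to that shift.

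The pair of serine synthesis genes Psph and Phgdh had the most negative values. In radial glia, null over WT for Psph was −0.32 on the log2 scale (SE 0.13, adjusted p = 0.187, Benjamini-Hochberg over all genes, edgeR quasi-likelihood test), with null libraries at 105 and 98.9 CPM and WT libraries at 113 and 108. Both null libraries were below both WT libraries, and the difference did not pass the adjusted threshold. In dividing progenitors it was −0.37 (SE 0.17) and in neurons −0.23 (SE 0.16). Phgdh was at −0.33 (SE 0.18) in radial glia, −0.33 (SE 0.21) in dividing progenitors and −0.094 (SE 0.19) in neurons, and the genotypes overlapped in each class because null replicate 2 was below and null replicate 1 above both WT libraries.

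The calls changed with the null library left out. Without null replicate 1, Phgdh was at −0.68, −0.74 and −0.44 and Psph at −0.45, −0.58 and −0.42 in radial glia, dividing progenitors and neurons, and both passed in each class (highest adjusted p = 0.0394, Benjamini-Hochberg over all genes, edgeR quasi-likelihood test). This fit rests on null replicate 2 alone, which is assumed to vary like WT. St18 in this library was above both WT libraries in each class. The deleted allele can be transcribed, so that level does not test the label. The fit called 27.4% of 12093, 27.2% of 12273 and 23.6% of 13562 genes in the 3 classes. The 2 of 8 members are near that share, so these calls are not a result about Phgdh and Psph. In this library 11.2% of barcodes with at least 3000 UMIs were over the mitochondrial limit, against 1.46% to 2.71% in the other 3, and its median depth of 9352 UMIs per cell was above their 6186 to 6998. The part of these differences in the calls was not tested. Without null replicate 2, neither gene passed, Phgdh in radial glia lay between −0.054 and −0.68 over the 4 fits that leave out a library, and Mthfd2 passed in radial glia at 0.47 (adjusted p = 0.0227, same test). The null arm was then 1 library, and 12.9% of 11982 genes passed in radial glia, near the share of 1 in 8 members. In male cells alone, none of the 8 passed in any class (edgeR), and of all genes 1.62% passed in radial glia, 0% (0 of 11379) in dividing progenitors and 0.00811% in neurons. At an unadjusted p under 0.05, 1, 2 and 0 of the 8 passed, beside 17.6%, 12.4% and 13.7% of all genes. Phgdh was at −0.32 and Psph at −0.39 in radial glia of male cells.

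Among the other members, Shmt2 had the most positive values in dividing progenitors and neurons. It was at 0.12 (SE 0.15) in radial glia, 0.28 (SE 0.15) in dividing progenitors and 0.28 (SE 0.19) in neurons. In radial glia Mthfd2 was the highest, at 0.26 (SE 0.19), with Shmt1 at 0.14 (SE 0.16). Psat1, Mthfd1 and Gldc lay between −0.080 and 0.12 in all 3 classes. In none of these did the genotypes differ beyond the adjusted threshold.

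**Figure D5:**
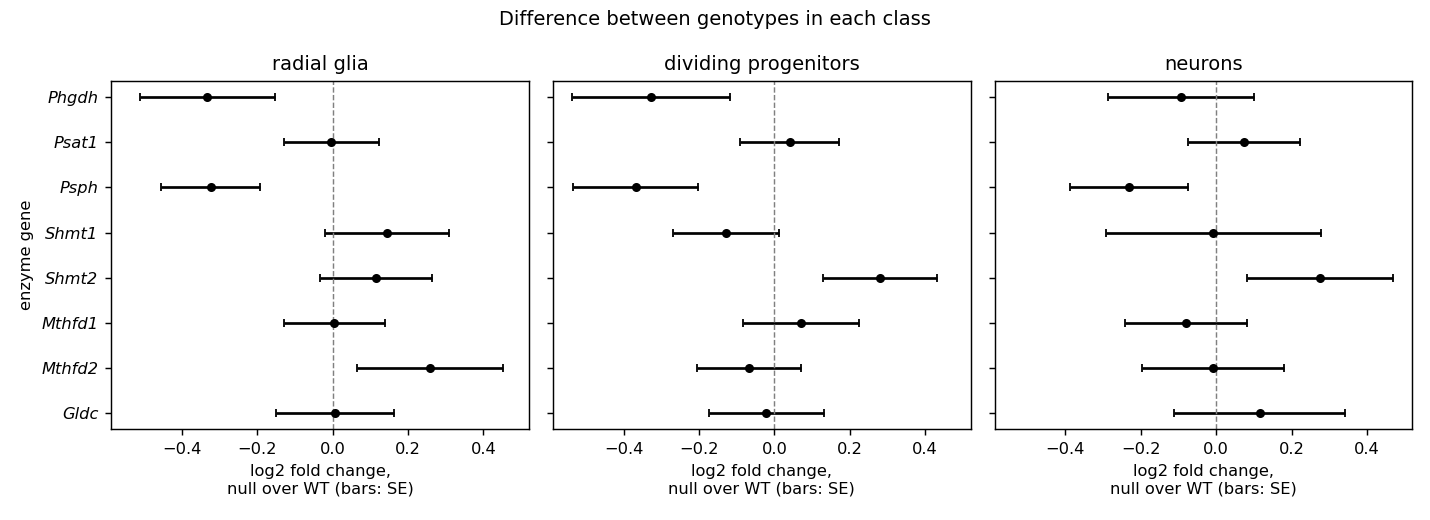
Log2 fold change of null over WT for the 8 enzyme genes in radial glia, dividing progenitors and neurons (points, edgeR estimates; bars, SE; n = 2 libraries per genotype). Phgdh and Psph lie left of 0 in all 3 classes and Shmt2 right of 0, and no gene passed the adjusted threshold.

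Nor did the genotype effect on a member differ between classes by an interaction term. None of the 8 passed for radial glia minus neurons (0.286% of 13642 genes did) or dividing progenitors minus neurons (0.22%). For Phgdh the difference was −0.28 (SE 0.11, adjusted p = 0.56, Benjamini-Hochberg over all genes, edgeR quasi-likelihood test) for dividing progenitors minus neurons and −0.21 (SE 0.11) for radial glia minus neurons.

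Of the 65 genes in the 8 pathway lists other than S phase, 57 were tested in radial glia, 55 in dividing progenitors and 57 in neurons. In radial glia 1 of 57 passed, which is no larger a share than the 2.38% of all genes, and none passed in the other classes. Ggh, which removes the glutamate tail that keeps folates in the cell, fell in null radial glia, where the null libraries were at 34.3 and 35.1 CPM and the WT libraries at 53.2 and 41.5 CPM. Its log2 fold change was −0.67 (SE 0.16, adjusted p = 0.0424, Benjamini-Hochberg over all genes, edgeR quasi-likelihood test). The call was lost without WT replicate 1 (−0.47, adjusted p = 0.553) or WT replicate 2 (−0.83, adjusted p = 0.0542) and in male cells alone (−0.73, adjusted p = 0.0631), and DESeq2 gave Ggh no adjusted p. In dividing progenitors and neurons, Ggh was at −0.42 and −0.43 and did not pass. By list, 0 of 7 serine genes, 1 of 8 cytosolic folate genes and 0 of 9 mitochondrial folate genes passed in radial glia. None passed of 4 glycine cleavage, 7 transport, 8 methionine cycle, 6 purine and 8 Atf4 list genes, and 0 of 14 S phase genes passed in any class. Tyms and Atf4 were among those that did not pass.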

How the data were processed

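Single-cell RNA-seq had been made by the authors from 4 libraries of e14.5 MGE. The deposited files hold raw UMI counts per gene and barcode, aligned to GRCm38 and counted with Cell Ranger (5.0.1 in the submitters' processing notes, 4 in the file headers). Counts were not normalized before deposit. Replicates were numbered in accession order, and the 8 genes and all gene lists were chosen with earlier results of these data known.

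Barcodes with at least 3000 UMIs and at most 10% mitochondrial UMIs were kept (3878 to 6631 per library). Between 4 and 11 of these barcodes were shared by each pair of libraries, where 2.29 to 4.40 were expected by chance. Each pair was above its own expectation, and the cause was not tested. Scrublet (scanpy 1.11.5) marked at most 0.244% of cells, so its call was not used and the highest scores were removed at 0.8% per 1000 cells (120 to 352 cells). Cells were clustered with Seurat 5.3.0 (1988 variable genes after removal of 12 that were list genes or sex-linked, 49 principal components, resolution 1.4, 25 clusters). The S phase list was not removed, and the difference between the S and G2M scores was regressed out before the principal components. A cluster was named where at least 3 markers were detected in 25% of cells at a log2 fold of 0.5 and its class score led by 0.4, thresholds set after the clusters were seen. Counts were summed by library and class and tested on all genes with edgeR 4.0.16 (filterByExpr, TMM, glmQLFit and glmQLFTest, two-sided, Benjamini-Hochberg over all genes, threshold 0.05), with library as a block for the interaction of genotype and class. DESeq2 1.42.0 and other scalings, filters and cell sets were alternatives. The edgeR and DESeq2 steps were tested on simulated data. Named list genes were fixed enzymes of each step plus any list gene past the threshold, and, for each member, the 3 genes of highest Pearson's r over named clusters. The values of 1 named gene are not reported here. Intervals (Poisson, Clopper-Pearson) cover counting error only.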

Additional observations from a re-analysis of the deposited data

Results flagged for a closer look

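In the log2 ratio of Shmt1 in radial glia over neurons, null replicate 1 stood apart at 4.39 against 3.91 to 3.96 in the other 3 libraries, a gap of 0.895 of the whole range. In the log2 ratio of Gldc in radial glia over dividing progenitors, null replicate 1 was at 0.74 against 0.59 to 0.60, a gap of 0.929 of the range. Both gaps are above Dixon's 95% critical value for 4 samples. Chance alone marks about 1 in 20 groups of samples in this way, and 24 ratios were examined.

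The effect of genotype differed between dividing progenitors and neurons for 3 of the 14 genes of the S phase list, beside 0.22% of 13642 genes tested. The log2 difference (null over WT, dividing progenitors minus neurons) was −0.46 for Mcm6, −0.68 for Gins2 and −0.43 for Rrm2, with adjusted p-values of 0.0483, 0.0168 and 0.0452 (edgeR interaction term). Within classes, null over WT for Mcm6, Gins2 and Rrm2 was −0.20, −0.23 and −0.11 in dividing progenitors. In neurons it was 0.22, 0.41 and 0.28, so both classes went into the difference. The share of dividing progenitors called in S phase was 24.7% and 28.8% in the null libraries and 32.4% and 31.95% in WT, and its part in these differences was not tested. None of the 14 genes of that list passed the genotype test within a class.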

How the results depend on the processing

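No paired analysis was possible because the labels carry no replicate numbers and nothing says which null and WT libraries shared litters. Leaving out a library moved the number of members past the threshold between 0 and 2 in each class. It was 2 without null replicate 1 in each class, 1 without null replicate 2 in radial glia and 0 otherwise. All genes past the threshold numbered 283, 3 and 87 in radial glia, dividing progenitors and neurons. They numbered 3312, 3339 and 3207 without null replicate 1, 1548, 1138 and 726 without null replicate 2, 36, 27 and 104 without WT replicate 1, and 43, 21 and 43 without WT replicate 2. Library totals gave 1065 (899 higher, 166 lower, against 63 and 220), 53 (22 and 31, against 2 and 1) and 325 (244 and 81, against 16 and 71), DESeq2 gave 419, 162 and 304, and no filter 757, 424 and 714. Male cells gave 178, 0 and 1, unnamed clusters put back 16, 19 and 91, classes by each cell's own markers 106, 7 and 10, and thinned cells 243, 44 and 179. Doublets kept gave 12 and a floor of 5000 UMIs 40 in neurons.

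Of 336 alternative log2 fold changes of members, 268 kept direction and call, 7 passed the threshold newly and 61 changed sign, most of them near 0. Library totals gave 0.21 for Psat1 in radial glia, 0.029, 0.083 and 0.14 for Shmt1, Mthfd2 and Gldc in dividing progenitors, and 0.040, 0.14, 0.064 and 0.13 for Phgdh, Shmt1, Mthfd1 and Mthfd2 in neurons. In radial glia, Mthfd1 and Gldc were at −0.0039 and −0.0015 with RLE factors and −0.0037 and −0.0034 with DESeq2. No filter gave 0.011 for Psat1 in radial glia, and 0.0034 and 0.0015 for Shmt1 and Mthfd2 in neurons. Male cells gave −0.033 and −0.0027 for Shmt2 and Gldc in radial glia, and −0.19 and 0.33 for Psat1 and Gldc in dividing progenitors. Doublets kept gave −0.020 for Mthfd1 in radial glia, and 0.049 and 0.0048 for Shmt1 and Mthfd2 in neurons. A floor of 5000 UMIs gave −0.0035 for Gldc in radial glia, and 0.0080 and 0.21 for Phgdh and Shmt1 in neurons. Unnamed clusters put back gave 0.040, −0.0014, −0.00024 and −0.087 for Psat1, Shmt1, Mthfd1 and Gldc in radial glia, −0.10 for Psat1 in dividing progenitors and 0.015 for Mthfd2 in neurons. Own markers gave 0.21 and −0.018 for Psat1 and Gldc in radial glia, −0.16 for Psat1 in dividing progenitors and 0.021 for Mthfd1 in neurons. Thinned cells gave 0.033 and −0.049 for Psat1 and Mthfd1 in radial glia, −0.092, 0.032 and 0.062 for Psat1, Psph and Shmt1 in dividing progenitors, and 0.10 and −0.082 for Mthfd1 and Gldc in neurons. Without 1 library, the ranges that crossed 0 were −0.016 to 0.0033 (Psat1), −0.055 to 0.30 (Shmt1), −0.047 to 0.053 (Mthfd1), −0.041 to 0.47 (Mthfd2) and −0.068 to 0.069 (Gldc) in radial glia. In dividing progenitors they were −0.052 to 0.20 (Mthfd1), −0.19 to 0.050 (Mthfd2) and −0.11 to 0.077 (Gldc), and in neurons −0.44 to 0.19 (Phgdh), −0.090 to 0.092 (Shmt1) and −0.20 to 0.20 (Mthfd2). The cause was not tested.

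Of 264 alternative class ratios of members, 194 stayed within the spread over libraries, 70 moved and none reversed. Those that moved by over 1.5 times were of Psat1 and Psph, with unnamed clusters put back or classes by own markers, including Psat1 in radial glia over neurons (log2 4.61, then 3.94 and 3.89). The median log2 ratio over the members was 2.83 for radial glia over neurons, and 2.73 with doublets kept, 2.58 with unnamed clusters put back, 2.51 by own markers and 2.70 with TMM factors. It was 2.07 for dividing progenitors over neurons, and 1.95 with unnamed clusters put back. For radial glia over dividing progenitors it was 1.01, and 0.72 by own markers and 0.80 with TMM factors.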
